A study of Homo sapiens with 6 samples.

Results

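The integrin and laminin genes were followed in LNCaP, a long-established human cell line of prostate cancer that responds to androgens, after knockdown of the retinoblastoma tumour suppressor RB. They were taken by symbol from the deposited count table, as the protein-coding genes named ITGA or ITGB plus a number, ITGAV, and LAMA, LAMB or LAMC plus a number. Genes of the ITGB1BP and ITGB3BP type were left out, and ITGA2B was counted as ITGA plus a number. The rule found 30 genes among 22279 transcript IDs, each by 1 ID. They comprise 18 integrin genes, of which 10 encode alpha and 8 beta subunits, and 12 laminin genes, of which 5 encode alpha, 4 beta and 3 gamma chains. ITGA1, ITGA4 and ITGA9 were not analysed here.

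The data are 6 RNA-seq libraries, 3 of cells with a hairpin against RB (shRB) and 3 of cells with a control hairpin (shCON). Both groups spent 72 h in a treatment that the labels call CDT and list as an arrest of the cell cycle, in a setting the series describes as hormone deficient. Each group has 1 hairpin label, so an effect of RB loss and one of the hairpin or of the cell population cannot be told apart. The labels do not say if replicates were separate cultures or if a line was 1 clone. The p-values therefore weigh the groups against the spread among these libraries alone, and that spread may be technical. In these bulk libraries, fewer cells of a type and less RNA per cell cannot be told apart.

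Integrins are receptors made of 1 alpha and 1 beta subunit that join the extracellular matrix to the actin cytoskeleton or to intermediate filaments. Laminins are trimers of an alpha, a beta and a gamma chain, and they are the main adhesive proteins of the basement membrane under an epithelium. Normal prostate basal cells hold on to that membrane through hemidesmosomes, which contain the integrin of ITGA6 and ITGB4, and through the integrin of ITGA3 and ITGB1. In prostate cancer, loss of ITGB4 is a known feature.

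Total counts were 9780579 to 10898768 in shRB and 6115310 to 20091488 in shCON. Levels are in CPM, from library totals corrected by TMM, and levels of different genes are compared only as CPM per kb of transcript. RB1 stood at 5.82, 3.82 and 5.41 CPM in shRB 1 to 3, against 56.5, 52.7 and 54.7 CPM in shCON 1 to 3. The library shRB 2 stood apart from the other shRB libraries, and its deviation from the group mean rose with the GC content of the transcript, with a Spearman correlation of 0.69 over 11674 genes that share the same libraries. The same correlation was −0.50 in shRB 1 and −0.54 in shRB 3, and −0.51, 0.52 and −0.09 in shCON 1 to 3. Each result of a member that turns on this library is therefore given with and without it, and so are the counts in lists of partner genes. Among markers of other cells, the endothelial genes PECAM1, CDH5, KDR and TEK had no count in any library, so that the endothelial sum of 1.73 to 3.71 CPM in shRB and 8.16 to 10.7 CPM in shCON was VWF alone, which was lower in shRB (log2 fold change −1.93, edgeR adjusted p = 3.5e-05). The leukocyte genes PTPRC and CD3E had no count, and the leukocyte sum of 5.21 to 5.72 CPM in shRB and 6.69 to 8.53 CPM in shCON was mostly CD68, which was not called. The basal keratin KRT5 had no count, and the basal sum was 0 to 0.21 CPM in shRB and 0.30 to 0.64 CPM in shCON. The sum over 5 stromal markers was 11.6 to 14.4 CPM in shRB and 26.6 to 35.1 CPM in shCON. Vimentin, VIM, carried that difference, with 8.47 ± 2.09 CPM in shRB and 25.3 ± 4.15 CPM in shCON (edgeR adjusted p = 2.6e-05), while TAGLN, at 4.47 ± 1.06 CPM in shRB and 3.71 ± 0.76 CPM in shCON, was not called. The part of these markers in the results was not tested.

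Few integrin and laminin genes passed the test between RB knockdown and control. Of the 30 genes, 18 passed the filter on low counts, and of these 1 was higher and 3 lower in shRB at an adjusted p under 0.05 (edgeR quasi-likelihood test, Benjamini-Hochberg over 11712 genes). Over all genes tested, 12.8% were higher and 12.5% lower, 25.3% in all, so that the 22.2% of tested members called lies near the background. The genes that passed were LAMC3, ITGB2 and ITGA6, all lower, and ITGB7, higher. The median log2 fold change was −0.19 over the 18 members and −0.01 over all genes tested. Among the 18 tested members, the libraries of the groups did not overlap for 2 that were higher and 5 that were lower in shRB, where all genes tested gave 21.0% and 20.2%. Of the untested members, ITGA11 was higher and ITGA8 and LAMB3 were lower without overlap, at low counts. Without shRB 2, 6 members were lower by edgeR, and ITGB7 did not pass, in a fit that called 17.5% of all genes tested higher and 16.5% lower.

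**Figure D1:**
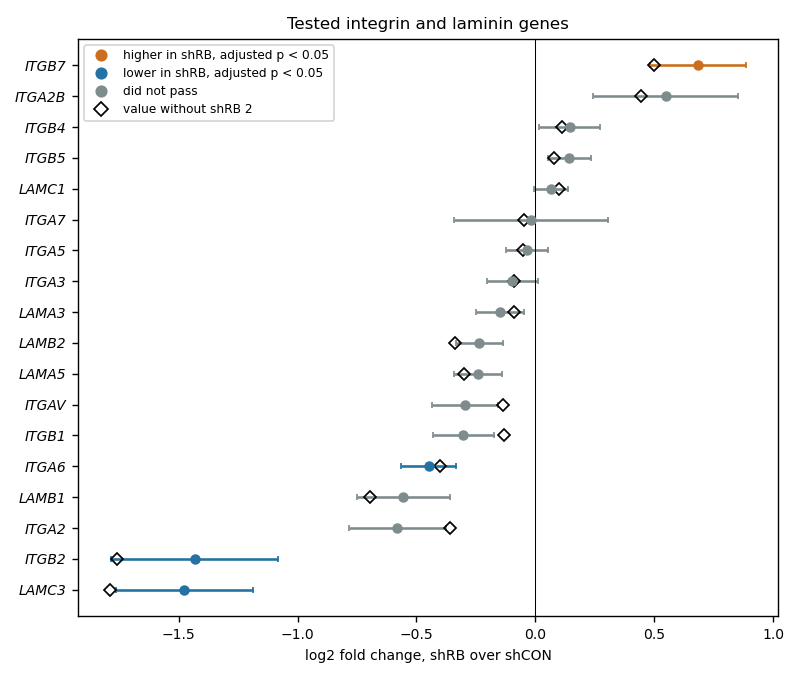
Log2 fold change of shRB over shCON for the 18 tested integrin and laminin genes (x axis), with the standard error of the edgeR fit as bars. Filled points are the fit over 6 libraries, coloured by call, and open diamonds are the value without shRB 2. LAMC3 and ITGB2 lie near −1.5, ITGA6 at −0.45 and ITGB7 at 0.68, and LAMA5, LAMB2 and LAMB1 move to the left without shRB 2, while ITGB1, ITGAV and ITGA2 move towards 0.

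The laminin genes with high levels were 1 of each chain type, LAMA5, LAMB2 and LAMC1, whose products can join in 1 trimer. In CPM per kb, LAMA5 averaged 10.1 ± 1.16 in shRB and 11.8 ± 1.28 in shCON (SD, n = 3 each, as for all means here). LAMB2 averaged 64.5 ± 9.37 CPM per kb in shRB and 75.8 ± 5.28 in shCON. LAMC1 averaged 32.9 ± 1.38 CPM per kb in shRB and 31.4 ± 1.40 in shCON. LAMB2 thus held 98.7% ± 0.10 of the summed beta chain level in shRB and 98.4% ± 0.05 in shCON, and LAMC1 99.5% ± 0.19 of the gamma chain level in shRB and 98.7% ± 0.09 in shCON. The alpha chains were shared between LAMA5, with 76.1% ± 2.59 in shRB and 77.8% ± 1.02 in shCON, and LAMA3, with 23.1% ± 2.90 in shRB and 22.0% ± 0.92 in shCON.

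The start regions of these 3 genes are shown because their chains can join in 1 protein and hold most of the laminin level. Each window holds 250 bases before and 50 after the RefSeq start (GRCh38.p14, written 5′ to 3′ along the gene). Capitals mark GGGCGG, the GC box that factors of the Sp family bind, on either strand (CCGCCC on the other). The windows lie at chr20:62367263-62367562 (minus strand, LAMA5), chr3:49133001-49133300 (minus strand, LAMB2) and chr1:183023170-183023469 (plus strand, LAMC1).
LAMA5: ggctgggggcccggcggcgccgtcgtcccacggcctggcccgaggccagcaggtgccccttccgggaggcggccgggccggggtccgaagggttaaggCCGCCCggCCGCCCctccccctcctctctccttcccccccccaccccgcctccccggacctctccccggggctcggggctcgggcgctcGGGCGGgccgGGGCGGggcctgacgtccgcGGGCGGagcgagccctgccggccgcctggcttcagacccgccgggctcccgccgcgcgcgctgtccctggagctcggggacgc
LAMB2: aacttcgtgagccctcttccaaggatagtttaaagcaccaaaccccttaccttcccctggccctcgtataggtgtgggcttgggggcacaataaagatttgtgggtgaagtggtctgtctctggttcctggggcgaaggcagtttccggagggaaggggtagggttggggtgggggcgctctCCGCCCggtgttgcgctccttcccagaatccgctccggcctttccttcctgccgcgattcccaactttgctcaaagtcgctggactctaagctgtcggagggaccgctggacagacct
LAMC1: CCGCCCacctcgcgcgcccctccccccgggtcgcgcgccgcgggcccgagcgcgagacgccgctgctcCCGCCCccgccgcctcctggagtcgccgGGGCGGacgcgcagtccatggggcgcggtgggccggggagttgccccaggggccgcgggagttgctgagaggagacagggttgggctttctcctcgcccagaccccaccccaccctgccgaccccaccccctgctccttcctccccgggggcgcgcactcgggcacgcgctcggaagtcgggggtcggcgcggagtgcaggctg
The LAMA5 window is 82.7% G and C and holds 5 such motifs, the LAMC1 window is 79.0% G and C with 3, and the LAMB2 window is 58.7% G and C with 1. The motif was in 18 of the 29 windows that RefSeq gives for 22 of the member genes (62.1%) and in 45.0% of all 35116 windows. Counted by gene it was in 13 of the 22, since some genes have several windows, and some of these overlap. E2F factors, which RB restrains, bind motifs such as TTTCCCGC, TTTGGCGC, TTTCGCGC and TTTGCCGC, and none of these was in the 29 windows on either strand, against 3.31% of all windows. With so low a share over all windows, 29 windows are too few to set the members apart from the background. The TATA box TATAAA was in 2 of the 29 windows, 1 of ITGA6 and 1 of ITGB1, and in 11.5% of all windows. Both genes also have a window richer in G and C (72.0% for ITGA6, 78.3% for ITGB1) that lacks it. Genes with no window included ITGA3, ITGA7, ITGB2, ITGB3, ITGB4, LAMA1 and LAMC3.

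LAMC1 encodes the gamma chain found in most laminins and did not pass. It had 256.9, 250.1 and 271.4 CPM in shRB 1 to 3, against 251.2, 256.2 and 235.1 CPM in shCON 1 to 3. The groups overlap, and the log2 fold change was 0.07 ± 0.07 (SE; edgeR adjusted p = 0.53).

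LAMB2 encodes the beta chain of laminins in the basement membranes of kidney, muscle and many mature epithelia. It had 312.8, 419.1 and 365.9 CPM in shRB 1 to 3, against 429.1, 460.9 and 401.1 CPM in shCON 1 to 3. Only shRB 2 reached into the shCON range, and the log2 fold change of −0.24 ± 0.10 (SE) did not pass (edgeR adjusted p = 0.095). Without shRB 2 it was −0.34 ± 0.07 and passed (edgeR adjusted p = 6.4e-05). With any other single library left out LAMB2 did not pass, and without shRB 1 it was −0.13 ± 0.09 (edgeR adjusted p = 0.35).

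LAMA5 encodes the most widespread alpha chain of adult basement membranes. It had 99.8, 124.9 and 120.0 CPM in shRB 1 to 3, against 140.4, 146.5 and 118.7 CPM in shCON 1 to 3. The groups overlap through shCON 3, and the log2 fold change of −0.24 ± 0.10 (SE) did not pass (edgeR adjusted p = 0.094), whereas without shRB 2 it was −0.30 ± 0.08 and passed (edgeR adjusted p = 0.0017). With any other single library left out LAMA5 did not pass, and without shRB 1 it was −0.15 ± 0.10 (edgeR adjusted p = 0.34). Its exons share 118 bases with the antisense gene LAMA5-AS1, which was lower in shRB, at 2.65 ± 0.49 CPM in shRB and 9.82 ± 1.44 CPM in shCON (log2 fold change −1.85 ± 0.19, edgeR adjusted p = 1.2e-05). Nothing in the sources says if counting used strand. At even coverage LAMA5-AS1 would give 0.45 CPM in shRB and 1.68 CPM in shCON in the shared bases, against LAMA5 levels of 114.9 CPM in shRB and 135.2 CPM in shCON.

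The ratio of LAMA5 to LAMB2 (CPM per kb) overlapped between groups, at 0.158, 0.148 and 0.163 in shRB 1 to 3 and 0.162, 0.158 and 0.147 in shCON 1 to 3. The ratio of LAMB2 to LAMC1 was 1.69, 2.33 and 1.87 in shRB 1 to 3, and 2.38, 2.50 and 2.37 in shCON 1 to 3. That of LAMA5 to LAMC1 was 0.268, 0.345 and 0.305 in shRB 1 to 3, and 0.386, 0.395 and 0.349 in shCON 1 to 3. Both ratios to LAMC1 were lower in every shRB library than in any shCON library, by a narrow margin in shRB 2, and they are given without a test, since they were chosen after the values were seen. LAMB2 lies on chromosome 3, whose 662 other tested genes had a median log2 fold change of 0.15, on the opposite side of 0.

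**Figure D2:**
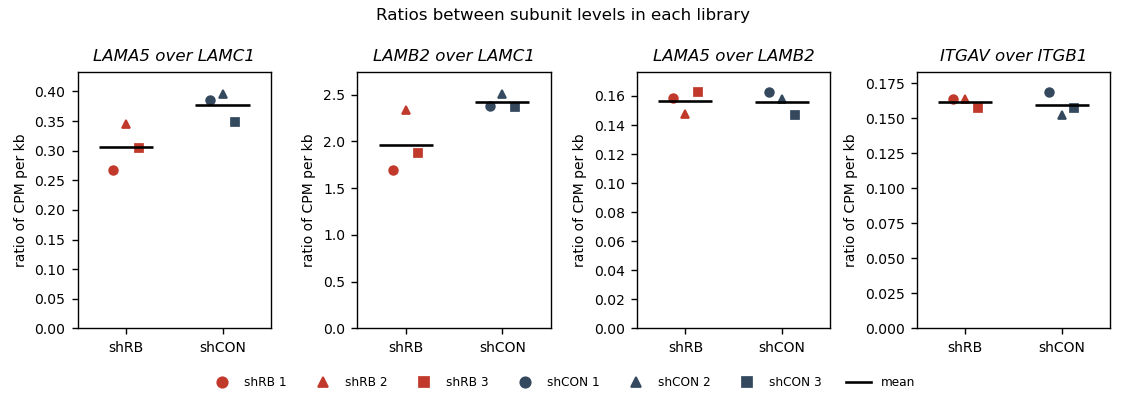
Ratio of CPM per kb between pairs of subunit genes in each library (y axis, from 0), with shRB left of shCON and the group mean as a bar. The ratios of LAMA5 and LAMB2 to LAMC1 lie lower in all 3 shRB libraries than in any shCON library, and the ratios LAMA5 to LAMB2 (0.147 to 0.163) and ITGAV to ITGB1 (0.152 to 0.169) overlap between groups.

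LAMC3, whose gamma chain is known from the retina, brain surface and some other tissues, was the laminin gene that passed as lower in the fit over 6 libraries. It had 0.64, 1.27 and 0.77 CPM in shRB 1 to 3 (27 counts in all), against 2.50, 2.41 and 2.45 CPM in shCON 1 to 3 (90 counts in all). No shRB library reached the shCON level. The log2 fold change was −1.48 ± 0.29 (SE; edgeR adjusted p = 0.0023), which leaves 36.0% of the shCON level, and it ranged from −1.79 to −1.27 with 1 library left out. LAMC3 was a small part of the gamma chain level, 0.44% ± 0.18 in shRB and 1.26% ± 0.06 in shCON. The nearest 3 tested genes on each side had a median log2 fold change of 0.15, and none of them passed as lower.

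LAMA3, the alpha chain of the epithelial laminin that binds the integrin of ITGA6 and ITGB4, had 32.6, 29.6 and 34.6 CPM in shRB 1 to 3, against 37.4, 36.3 and 32.8 CPM in shCON 1 to 3. The groups overlap (log2 fold change −0.15 ± 0.10, edgeR adjusted p = 0.31). LAMB3, a beta chain that joins LAMA3, had 4, 5 and 4 counts in shRB 1 to 3, against 15, 10 and 8 counts in shCON 1 to 3, too few to be tested, with 0.36 to 0.53 CPM in shRB and 0.74 to 1.31 CPM in shCON. LAMA3 was counted under an ID of 75 exons, the long form of the gene, and whether shorter forms gave reads was not tested.

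LAMB1 encodes the beta chain of early and widespread laminins. It had 2.91, 4.77 and 4.34 CPM in shRB 1 to 3, against 6.18, 5.92 and 5.06 CPM in shCON 1 to 3. All shRB libraries were lower than all shCON libraries, but the log2 fold change of −0.56 ± 0.20 (SE) did not pass (edgeR adjusted p = 0.053), and without shRB 2 it was −0.69 ± 0.21 and passed (edgeR adjusted p = 0.0072). With any other single library left out LAMB1 did not pass, and without shRB 1 it was −0.36 ± 0.19 (edgeR adjusted p = 0.21). The count is uncertain, because 70 of the transcript's 5725 bases are shared with DLD on the opposite strand. At even coverage DLD would give 4.21 CPM in shRB and 4.66 CPM in shCON in those bases, against a LAMB1 level of 4.01 ± 0.97 CPM in shRB and 5.72 ± 0.59 CPM in shCON.

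Other laminin genes were at the edge of detection. LAMA1, a chain of the early embryo, had 6, 14 and 13 counts in shRB 1 to 3, against 13, 1 and 1 counts in shCON 1 to 3. Read as 0.55, 1.48 and 1.25 CPM in shRB and 0.64, 0.10 and 0.16 CPM in shCON, the groups overlap through shCON 1, and the gene was not tested. LAMA2 and LAMA4, chains of muscle and of vessel walls, had 0 counts in shRB, against 2 and 1 counts in shCON, and LAMB4 had 6 counts in shRB and 3 in shCON.

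**Figure D3:**
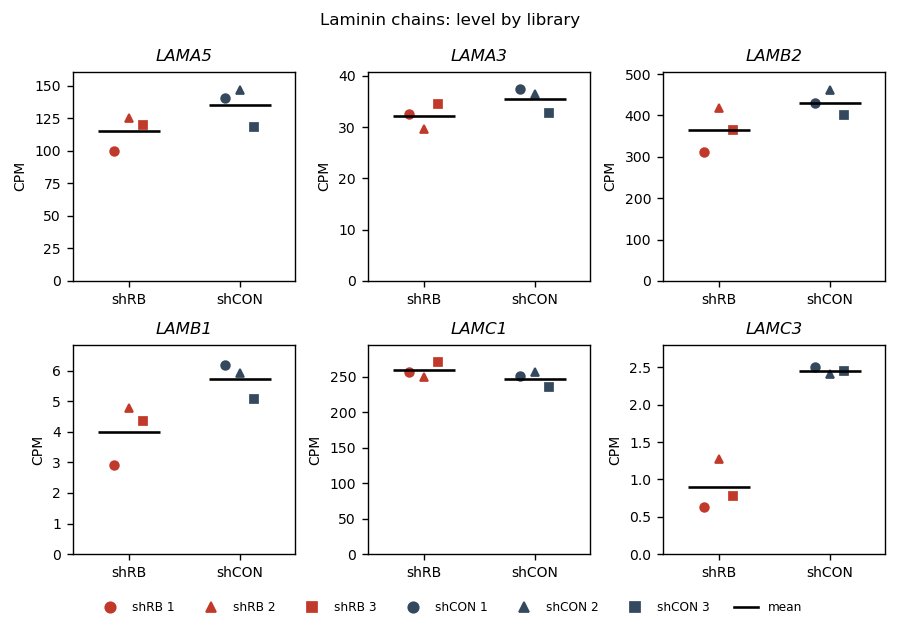
CPM of the 6 tested laminin genes in each library (y axes start at 0), with shRB left of shCON and the group mean as a bar. LAMC3 is lower in each shRB library (0.64 to 1.27 CPM) than in any shCON library (2.41 to 2.50 CPM), LAMC1 overlaps between groups, and shRB 2 is the highest shRB library for LAMA5, LAMB2, LAMB1 and LAMC3.

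Among integrin alpha subunits, ITGAV and ITGA5, which make receptors for fibronectin and other ligands with the RGD motif, had the highest levels. ITGAV averaged 11.5 ± 2.44 CPM per kb in shRB and 14.1 ± 2.06 in shCON, and ITGA5 11.2 ± 0.36 CPM per kb in shRB and 11.5 ± 0.81 in shCON. The laminin receptors ITGA6 (4.27 ± 0.28 CPM per kb in shRB, 5.80 ± 0.76 in shCON) and ITGA3 (4.19 ± 0.23 in shRB, 4.50 ± 0.26 in shCON) came next. Together these 4 genes held most of the alpha subunit level, ITGAV 35.1% ± 5.09 in shRB and 37.5% ± 3.58 in shCON, ITGA5 34.7% ± 3.73 in shRB and 30.9% ± 3.52 in shCON.

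ITGA6 was the alpha subunit that passed as lower in the fit over 6 libraries. It had 24.4, 22.3 and 25.4 CPM in shRB 1 to 3, against 36.7, 28.2 and 32.8 CPM in shCON 1 to 3. The groups do not overlap. The log2 fold change was −0.45 ± 0.12 (SE; edgeR adjusted p = 0.012), which leaves 73.3% of the shCON level. Without shCON 1 it was −0.34 ± 0.13 and did not pass (edgeR adjusted p = 0.11), and without shRB 2 it was −0.40 ± 0.11 and passed. The nearest 3 tested genes on each side had a median of 0.02, and none passed in either direction. Antisense genes share up to 174 of the 5618 bases of its transcript.

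Its hemidesmosome partner ITGB4 did not pass. ITGB4 had 15.8, 16.7 and 14.2 CPM in shRB 1 to 3, against 12.8, 14.3 and 16.0 CPM in shCON 1 to 3 (log2 fold change 0.14 ± 0.13, edgeR adjusted p = 0.44). The ratio of ITGA6 to ITGB4 (CPM per kb) was 1.64 ± 0.24 in shRB and 2.42 ± 0.52 in shCON, lower in each shRB library than in any shCON library, a description chosen after the values were seen.

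ITGA3, the other main laminin-binding alpha subunit, had 19.3, 20.6 and 21.5 CPM in shRB 1 to 3, against 20.7, 23.2 and 22.0 CPM in shCON 1 to 3 (log2 fold change −0.10 ± 0.11, edgeR adjusted p = 0.55). ITGA5 had 49.6, 51.7 and 48.6 CPM in shRB 1 to 3, against 48.8, 55.4 and 49.6 CPM in shCON 1 to 3 (log2 fold change −0.04 ± 0.09, edgeR adjusted p = 0.80; 0.027 without shCON 2). Both pairs of groups overlap.

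ITGAV had 95.1, 61.9 and 85.9 CPM in shRB 1 to 3, against 114.5, 85.8 and 96.6 CPM in shCON 1 to 3. Its log2 fold change of −0.29 ± 0.14 (SE) did not pass (edgeR adjusted p = 0.14) and was −0.14 without shRB 2, the lowest library. ITGB1, the partner of most alpha subunits, also had its lowest value in shRB 2. It had 301.1, 196.1 and 282.4 CPM in shRB 1 to 3, against 351.1, 292.3 and 318.0 CPM in shCON 1 to 3, with a log2 fold change of −0.30 ± 0.13 (SE; edgeR adjusted p = 0.10). Without shRB 2 it was −0.13 ± 0.07 and did not pass (edgeR adjusted p = 0.13), and without shRB 1 it was −0.42 and passed (edgeR adjusted p = 0.039). The ratio of ITGAV to ITGB1 was 0.157 to 0.163 in shRB and 0.152 to 0.169 in shCON.

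ITGA2, a receptor for collagen and laminin with ITGB1, had 5.0, 3.18 and 6.47 CPM in shRB 1 to 3, against 7.70, 7.13 and 7.02 CPM in shCON 1 to 3. The groups do not overlap, but the log2 fold change of −0.58 ± 0.21 (SE) did not pass (edgeR adjusted p = 0.054). It was −0.36 without shRB 2, and without shRB 3 it was −0.83 and passed (edgeR adjusted p = 0.018).

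Among beta subunits, ITGB1 held 73.7% ± 6.70 of the summed level in shRB and 79.6% ± 2.67 in shCON, and ITGB5, which pairs with ITGAV, 20.9% ± 5.07 in shRB and 16.2% ± 1.95 in shCON. ITGB5 had 78.1, 94.9 and 84.5 CPM in shRB 1 to 3, against 72.5, 82.2 and 79.2 CPM in shCON 1 to 3 (log2 fold change 0.14 ± 0.09, edgeR adjusted p = 0.28). The groups overlap, and the value is close to the median of 0.15 over the other tested genes of its chromosome 3.

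ITGB2, the beta subunit of leukocyte integrins, fell from a low level. It had 0.73, 1.48 and 0.87 CPM in shRB 1 to 3 (31 counts in all), against 2.35, 4.01 and 1.80 CPM in shCON 1 to 3 (99 counts in all). The groups do not overlap. The log2 fold change was −1.43 ± 0.35 (SE; edgeR adjusted p = 0.0092), which leaves 37.1% of the shCON level, and it ranged from −1.76 to −1.11 with 1 library left out. ITGB2 lies on chromosome 21, whose 122 other tested genes had a median log2 fold change of −0.38, and 5 of its 6 nearest tested genes (3 on each side) also passed as lower, with a median of −0.40 over the 6. Its usual alpha partners ITGAL, ITGAM, ITGAX and ITGAD reached at most 5 counts in a library. Among leukocyte markers, HLA-DRA had 5 counts over shRB and 44 over shCON, and LYZ had 3 over shRB and 12 over shCON, and their part in the ITGB2 result was not tested.

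ITGB7, the beta subunit of lymphocyte homing receptors, was the member that passed as higher in the fit over 6 libraries. It had 4.73, 7.21 and 5.21 CPM in shRB 1 to 3, against 3.48, 4.01 and 2.94 CPM in shCON 1 to 3. The groups do not overlap, and the log2 fold change was 0.68 ± 0.20 (SE; edgeR adjusted p = 0.025). The call was lost without shRB 2 (0.50, edgeR adjusted p = 0.061), without shCON 1 (0.67, adjusted p = 0.10), without shCON 3 and with DESeq2. The count is uncertain, since 1469 of its 2791 bases are shared with ZNF740 on the opposite strand, which was not analysed here. ITGAE, which pairs with ITGB7 and is outside the rule, had 41.2 ± 5.19 CPM in shRB and 36.4 ± 2.89 CPM in shCON (log2 fold change 0.18 ± 0.11, edgeR adjusted p = 0.26).

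The platelet subunit ITGA2B had 1.27, 1.59 and 1.25 CPM in shRB 1 to 3, against 0.98, 0.70 and 1.14 CPM in shCON 1 to 3. The groups do not overlap, but the log2 fold change of 0.55 ± 0.31 (SE) did not pass (edgeR adjusted p = 0.21). Its partner ITGB3, counted under ENST00000559488, had no count in any library. The muscle laminin receptor ITGA7 had 0.91 to 1.25 CPM in shRB and 0.65 to 1.41 CPM in shCON (log2 fold change −0.02 ± 0.32, edgeR adjusted p = 0.97), with a sign that changed between fits.

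Of the genes not tested, ITGB8 had 5, 6 and 2 counts in shRB 1 to 3, against 2, 9 and 0 counts in shCON 1 to 3. ITGA10 had 6 counts over shRB and 8 over shCON, ITGA8 3 over shRB and 9 over shCON, ITGA11 5 over shRB and 0 over shCON, and ITGB6 1 over shRB and 2 over shCON. Their counts were too low for the test. ITGB6 and ITGB8 encode partners of ITGAV that release the growth factor TGF-beta from its latent form.

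**Figure D4:**
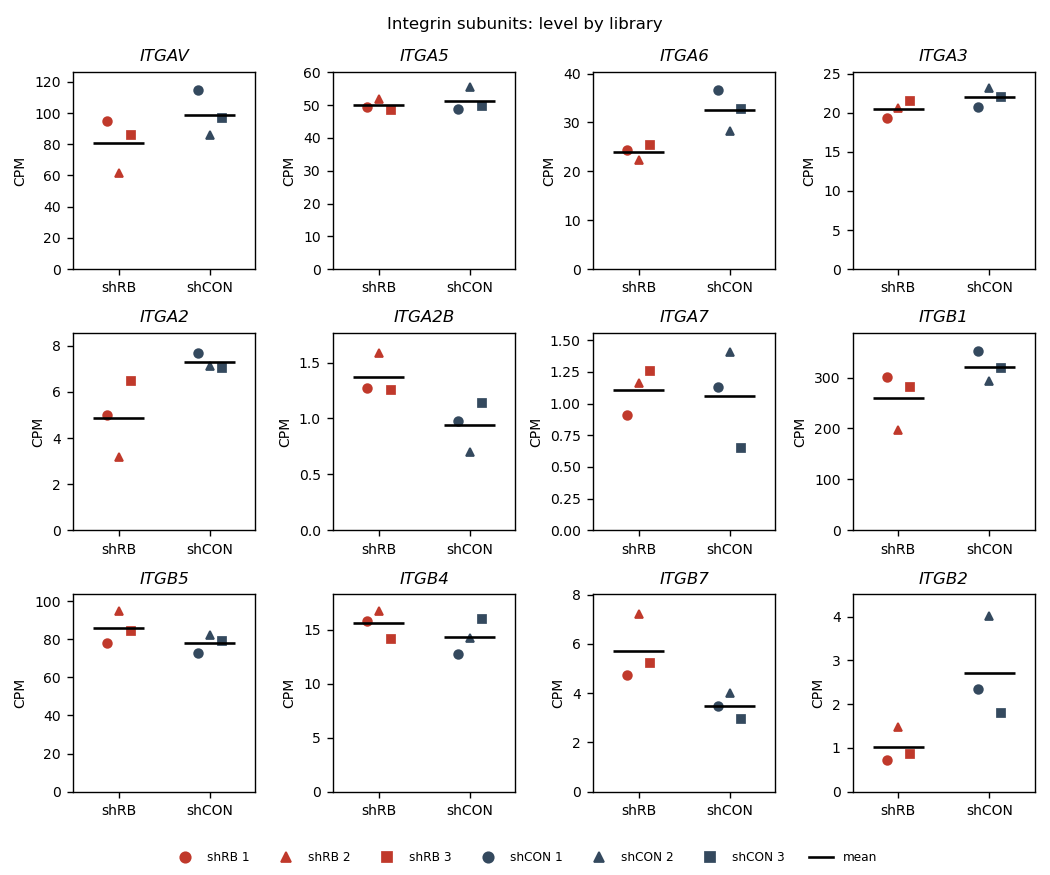
CPM of the 12 tested integrin genes in each library (y axes start at 0), with shRB left of shCON and the group mean as a bar. ITGA6 and ITGB2 are lower and ITGB7 higher in each shRB library than in any shCON library, and shRB 2 is the lowest library for ITGAV, ITGB1, ITGA2 and ITGA6.

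The spread within the shRB group followed GC content among the members as among all genes. In shRB 2 the deviation of log2 CPM from the group mean was −0.36 for ITGAV, −0.38 for ITGB1 and −0.54 for ITGA2, whose transcripts are 38.3%, 39.5% and 40.2% G and C. It was 0.13 for LAMA5, 0.21 for LAMB2 and 0.48 for LAMC3, at 66.4%, 60.3% and 64.3% G and C. Over the 18 tested members the Spearman correlation of this deviation with GC content was 0.64 in shRB 2, −0.52 in shRB 1 and −0.61 in shRB 3, against −0.56, 0.38 and 0.03 in shCON 1 to 3. These points share their libraries and are a description only, and since deviations within a group sum to about 0, opposite signs among its libraries follow from the centring.

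**Figure D5:**
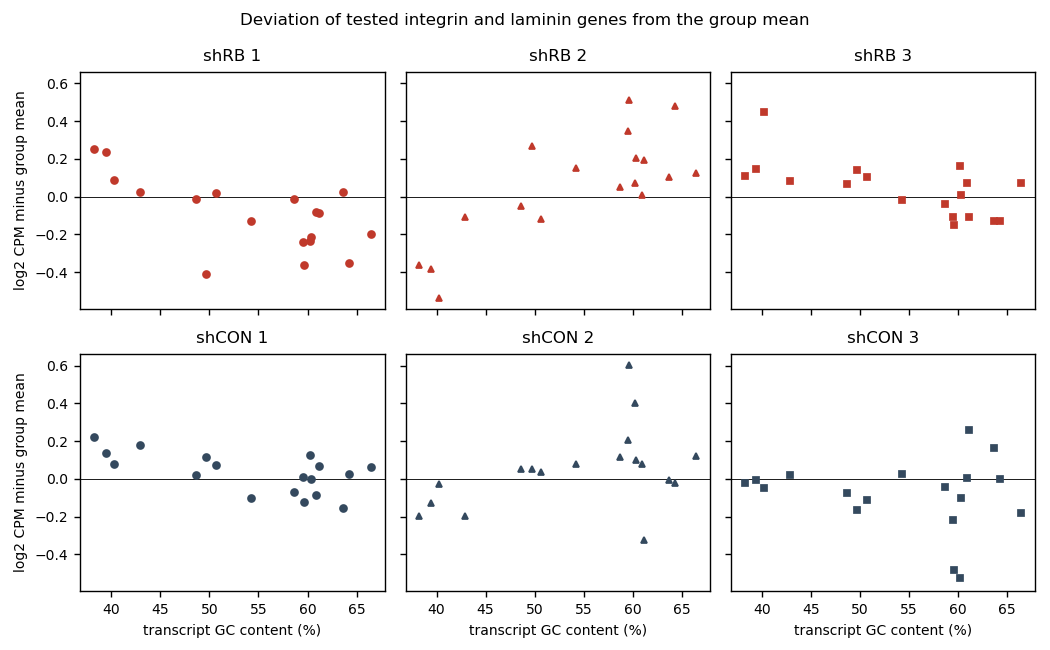
Deviation of log2 CPM from the group mean (y axis) against the GC content of the transcript in percent (x axis) for the 18 tested members, 1 panel a library, with shRB above shCON. In shRB 2 the GC-poor genes ITGAV, ITGB1 and ITGA2 lie lower than 0 (−0.36 to −0.54) and the GC-rich LAMC3 and ITGB2 higher than 0 (0.48 and 0.51). Deviations sum to about 0 within a group, so the opposite tilt of shRB 1 and shRB 3 follows from the centring.

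The genes that work with integrins and laminins inside and outside the cell were read from lists, with the same background of 12.8% higher and 12.5% lower, or 17.5% and 16.5% without shRB 2. Among receptors for laminin other than integrins, 4 of 7 tested genes rose and 0 fell (median log2 fold change 0.32). The count that rose was 2 without shCON 2 or without shCON 3, and without shRB 2 it was 5, with 1 lower. The syndecans, proteoglycans that bind matrix through heparan sulfate, made up 3 of the 4. SDC4 averaged 202.4 ± 12.2 CPM in shRB and 154.5 ± 7.93 CPM in shCON (edgeR adjusted p = 0.0022), and SDC1 averaged 107.3 ± 18.9 CPM in shRB and 84.5 ± 4.85 CPM in shCON (edgeR adjusted p = 0.034). The fourth was RPSA, the ribosomal protein also known as a laminin receptor, with 1773 ± 113.6 CPM in shRB and 1388 ± 47.8 CPM in shCON (edgeR adjusted p = 0.0041), a gene that can share reads with its many near-identical pseudogenes. DAG1, which encodes dystroglycan, had 491.2 ± 34.4 CPM in shRB and 421.9 ± 34.3 CPM in shCON. With shRB 2 included it did not pass (edgeR adjusted p = 0.063), but it was among the 5 genes higher without shRB 2. RPSA and DAG1 lie on chromosome 3.

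Among other genes of the basement membrane, 2 of 6 tested fell and 0 rose (median −0.22), and without shRB 2, 3 were lower. FRAS1, of the complex that anchors epithelium to the membrane in the embryo, averaged 0.07 ± 0.06 CPM in shRB and 6.15 ± 1.22 CPM in shCON (edgeR adjusted p = 3.6e-07). NTN4, a netrin with a laminin-like domain, averaged 1.55 ± 0.25 CPM in shRB and 3.48 ± 0.57 CPM in shCON (edgeR adjusted p = 0.0047). The heparan sulfate proteoglycans HSPG2 and AGRN did not pass in the fit over 6 libraries, and their calls without shRB 2 are not given here. NID1, the linker between laminin and collagen networks, had 3 counts over shRB and 2 over shCON.

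Other ligands of integrins moved both ways, with 1 of 5 tested higher and 3 lower (median −0.61), and 2 were lower without shCON 1 or without shCON 2, against 4 without shCON 3, shRB 2 or shRB 3. Fibronectin, FN1, the ligand of ITGA5 with ITGB1, rose and averaged 180.0 ± 14.2 CPM in shRB and 130.0 ± 9.27 CPM in shCON (edgeR adjusted p = 0.0011). NOV, a matricellular protein, averaged 1.91 ± 0.20 CPM in shRB and 7.64 ± 0.62 CPM in shCON (edgeR adjusted p = 5.4e-06). MFGE8, a ligand of ITGAV integrins, averaged 20.7 ± 3.24 CPM in shRB and 31.6 ± 2.28 CPM in shCON (edgeR adjusted p = 0.0027).

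Among intracellular partners, of 6 tested integrin activators 0 rose and 1 fell (median −0.05). That was FERMT1, the epithelial kindlin that binds beta subunit tails, with 6.14 ± 1.18 CPM in shRB and 10.6 ± 0.92 CPM in shCON (edgeR adjusted p = 0.0037), while talin TLN1 had 195.2 ± 16.3 CPM in shRB and 195.3 ± 9.60 CPM in shCON. Of 19 tested focal adhesion genes 1 rose and 1 fell (median −0.02). The actin crosslinker ACTN1 rose, with 182.9 ± 0.72 CPM in shRB and 151.7 ± 4.43 CPM in shCON (edgeR adjusted p = 0.011; no call without shCON 1 or without shCON 3), and the scaffold NEDD9 fell, with 13.2 ± 0.17 CPM in shRB and 19.9 ± 2.35 CPM in shCON (edgeR adjusted p = 0.0035). By edgeR, none of 5 tested integrin inhibitors (median −0.04) and none of 8 hemidesmosome and tetraspanin genes (median 0.00) passed, with 1 of each at an unadjusted p under 0.05 and 0 of each by DESeq2 and by limma-voom. Without shRB 2, 1 of the inhibitors and 2 of the hemidesmosome and tetraspanin genes were lower. With the replicate number as a block, 2 of the inhibitors and 1 of the hemidesmosome and tetraspanin genes were lower. Fits with no filter called 1 inhibitor lower, and library totals alone 1 hemidesmosome or tetraspanin gene.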

How the data were processed

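RNA was measured by sequencing of 6 LNCaP libraries, prepared with an Illumina TruSeq kit per the labels' protocols. The authors deposited raw read counts per transcript ID, unnormalized. The submitters' processing notes list STAR, HOMER, edgeR and hg19 with no version or step. The annotation and the use of strand are not stated. Names, lengths, GC content, gene order and exon overlap came from GENCODE release 29 (GRCh38) by ID (22182 of 22279 matched, and the 97 others, with 0.38% of counts, stayed in the totals). Start regions came from RefSeq (GRCh38.p14).

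Genes were kept by filterByExpr (minimum count 10, minimum total 15), scaled by TMM and tested across the whole table with edgeR 4.0.16 in R 4.3.3 (glmQLFit, glmQLFTest, group as the only term), with Benjamini-Hochberg adjustment and a threshold of 0.05. The SE is the log2 fold change divided by the square root of F. The procedure was tested on simulated data. Alternatives were DESeq2 1.42.0, limma-voom 3.58.1, RLE scaling, library totals alone, no filter, a block for the replicate number, leaving out each library and a threshold of 0.01. Between replicates, chi-square over genes was 2.23 to 11.4 for each degree of freedom, so no library was treated as a copy of another. Values are given for each called member and the highest of each subunit type, with the other members in brief, and for up to 3 called genes of each list. Members and lists were chosen with earlier results of these data known, and TLN1, DAG1, HSPG2, AGRN, NID1, ITGAE, DLD and LAMA5-AS1 were named after their values were seen. Some genes that the rules take are not reported here.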

Additional observations from a re-analysis of the deposited data

How the results depend on the processing

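Of the 4 called members, LAMC3 and ITGB2 kept direction and call under all 13 alternatives. ITGA6 lost its call without shCON 1 and at a threshold of 0.01, and ITGB7 at that threshold, with DESeq2 and without shCON 1, shCON 3 or shRB 2. The count of members higher in shRB (1) was 0 with DESeq2, 2 without a filter, 0 at a threshold of 0.01, and 0 to 2 with 1 library left out. The count lower in shRB (3) was 2 to 6 with 1 library left out. Without a filter it was 9 of 29 tested members, in a fit that called 1641 of all genes higher and 1863 lower. That fit took a larger set than the 11712 genes, all of the 22279 IDs but the 5693 with no count in any library. LAMA1, not tested with the filter, passed as higher without it, and also without shCON 1 or shRB 1. With the replicate number as a block 9 of the 18 tested members were lower, with ITGA2, ITGAV, ITGB1, LAMA5, LAMB1 and LAMB2 added to the 3. That fit called 2294 of the 11712 genes tested lower and 2202 higher. Deviations of same-numbered libraries had correlations of 0.24, 0.35 and 0.00, against −0.37 to 0.27 between shRB and shCON libraries of different number. The numbers were not taken as pairs, and these values do not settle whether they are. Over all genes, 1499 were higher and 1459 lower, against 787 and 793 at a threshold of 0.01, 863 to 2074 higher and 912 to 1956 lower with 1 library left out (863 and 912 without shCON 1, 969 and 964 without shCON 3). ITGA5, at −0.077 to 0.027 with 1 library left out, changed sign without shCON 2, and ITGA7, at −0.14 to 0.14, without shCON 2 and without shRB 1, as well as with DESeq2 (0.024) and with limma-voom (0.033). The causes were not tested. RB1 kept its call throughout, from −3.56 to −3.27 on the log2 scale. Depth limits the 12 members with too few counts to be tested, which had at most 15 counts in any library.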
